A study of Mus musculus with 12 samples.

Results

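A list of 41 genes of DNA damage sensing and repair was followed in T cells from irradiated and unirradiated mouse tumours. The list was given by name and covers sensing and signalling (10 genes), end joining (7), homologous recombination and crosslink repair (7), base excision and single-strand break repair (5), nucleotide excision repair (5), translesion polymerases (2) and stress response (5). All 41 were among the 33696 genes of the deposited count matrices, with totals over the kept cells between 210 unique molecular identifiers (UMIs, counted mRNA molecules) for Rad51c and 14207 for Gadd45b. The cells were live CD90.2+ T cells sorted from MC38 tumours, a mouse colorectal cancer line, grown in mice heterozygous for Kaede, whose green colour changes to red under violet light. On day 14 that light was shone on each mouse's tumour-draining lymph node, so red marks T cells that came to the tumour from this node, and green those that were not converted.

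The irradiated groups were RT day 1 and RT day 3 (12 Gy to the tumour, harvest after 24 or 72 h) and RT+FTY720 day 3, which also had 10 µg of FTY720, a drug that holds T cells in lymph nodes, on day 15. Their unirradiated counterparts were NT day 1, NT day 3 and FTY720 day 3. Each of the 6 conditions had 2 pools of 4 tumours from 4 mice, and the red and green cells of each pool were tagged separately, which gave 24 tagged samples. The age of the mice was not among the labels used. RT day 1, NT day 1 and NT day 3 shared one 10x well per replicate and the other 3 conditions another, so that for RT day 3 against NT day 3 well and radiation cannot be told apart, whereas RT day 1 against NT day 1 and RT+FTY720 against FTY720 were compared within wells.

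Ionizing radiation breaks DNA, and the kinases Atm, Atr and the Prkdc product (DNA-PKcs) relay the damage to Chek2 and p53. Double-strand breaks are rejoined by end joining, which T cells also use to assemble their receptor genes, or copied from a sister chromatid by homologous recombination in dividing cells. Most of these proteins are switched on by phosphorylation and recruitment to the break, whereas Polk, Aen, Sesn2, Ddb2, Xpc and the Gadd45 genes are among those whose transcription is known to respond to stress or p53 in some mammalian cells.

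The 250 bases upstream of the RefSeq start (GRCm38.p6) are shown for 3 genes called in a comparison after radiation. Of these, Chek2 was called in CD8-like cells at day 3 and not in the fit over 3 pairs of conditions given below. Polk lies on the minus strand at chr13:96542580-96542829 and encodes a polymerase that copies past damaged bases. Dclre1c lies on the plus strand at chr2:3423881-3424130 and encodes Artemis, the nuclease that opens hairpin ends. Chek2 lies on the plus strand at chr5:110839733-110839982. Capitals mark a window that matches at least 17 of the 20 positions of the p53 response element, a pair of adjacent half-sites with no spacer that reads the same on both strands.
Polk: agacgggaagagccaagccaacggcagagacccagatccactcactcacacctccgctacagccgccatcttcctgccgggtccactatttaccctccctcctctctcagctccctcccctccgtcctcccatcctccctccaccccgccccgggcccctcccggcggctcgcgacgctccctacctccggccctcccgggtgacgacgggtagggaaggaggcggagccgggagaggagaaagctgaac
Dclre1c: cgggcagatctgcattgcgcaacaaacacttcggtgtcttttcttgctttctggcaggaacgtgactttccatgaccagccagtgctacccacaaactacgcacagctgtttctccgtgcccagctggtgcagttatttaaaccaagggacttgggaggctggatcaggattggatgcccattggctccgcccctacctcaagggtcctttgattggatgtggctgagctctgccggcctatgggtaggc
Chek2: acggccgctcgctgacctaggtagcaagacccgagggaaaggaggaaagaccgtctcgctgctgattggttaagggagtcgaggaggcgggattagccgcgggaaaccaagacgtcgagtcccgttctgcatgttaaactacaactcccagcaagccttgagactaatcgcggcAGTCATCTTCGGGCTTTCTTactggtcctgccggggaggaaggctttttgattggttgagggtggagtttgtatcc
The best window matched 13 positions in this Polk sequence, 15 in Dclre1c and 17 in Chek2. Of the 33 listed genes with an entry in the RefSeq table, 5 held such a match upstream of at least one start: Chek2, Trp53, Aen, Gadd45a and Polk, the last only at a second annotated start inside the gene. That was 15.2% of these genes, against 6.15% of the 27025 genes in the table. A match describes letters and not a bound site.

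The 2740 cells kept came in tagged samples of 17 to 322 cells and 337319 to 7891316 UMIs. Pan-T markers were present, Cd3e having a UMI in 97.7% of cells. Cells were grouped by clusters and markers into CD8-like (1278 cells), Treg-like (599), CD4 conventional-like (400) and naive-like cells, and UMIs were summed per tagged sample. Levels are the gene's UMIs scaled to the sum's total (CPM). A gene was called where edgeR's quasi-likelihood test gave a Benjamini-Hochberg adjusted p under 0.05 over all genes tested. Colours follow the matrices' tag names, which in the replicate 2 wells are the opposite of the labels' tag numbers for all 6 tags of each well, so which cells of replicate 2 were red is disputed. Values by colour use the matrices' colours unless the labels' colours are named. In sums over cells, fewer cells that express a gene and less RNA per cell cannot be told apart.

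At day 1, none of the listed genes was called between irradiated and unirradiated samples in any lineage or colour tested. Naive-like cells were not tested as a lineage of their own. The counts were 0 of 29 tested in green CD8-like cells, 0 of 35 in red CD8-like, 0 of 30 in red Treg-like, 0 of 19 in green and 0 of 27 in red CD4 conventional-like cells, and 0 of 41 in red T cells as a whole, where the share of all genes called was 0%. They were also 0 of 31 in green Treg-like cells (0.268% of all genes called) and 0 of 34 in green T cells as a whole (0.12%). DESeq2 also called none of them, and unadjusted p-values under 0.05 numbered 4, 0, 1, 2, 0 and 2 in the first 6 of these comparisons and 4 and 8 in the last 2. In simulated counts, the test in green CD8-like cells recovered 30% of genes changed 2-fold and 83% of those changed 4-fold. Counts of 0 here therefore do not show that smaller changes were absent.

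Polk, the translesion polymerase, came closest in green T cells as a whole. It stood at 69.2 and 65.7 CPM in RT day 1 pools, against 37.5 and 32.7 CPM in NT day 1 pools, a log2 fold change of 0.95 ± 0.18 (SE, adjusted p = 0.090). Both irradiated pools lay above both unirradiated ones. In red T cells Polk stood at 44.3 and 33.9 CPM in RT day 1 pools, against 31.3 and 30.2 CPM in NT day 1 pools (0.35 ± 0.29, adjusted p = 1.00), again without overlap. With the labels' colours, replicate 2 changes sides, and Polk stood at 69.2 and 33.9 CPM in green T cells of RT day 1, against 37.5 and 30.2 CPM in those of NT day 1, and at 44.3 and 65.7 CPM in red T cells of RT day 1, against 31.3 and 32.7 CPM in those of NT day 1. The conditions then overlapped in green cells and not in red ones, and the colour with the larger difference was green in replicate 1 and red in replicate 2. No listed gene was called at day 1 with the labels' colours either. Whether green and red cells differed in this was tested in CD8-like cells, where the green minus red difference of the radiation effect on Polk was 0.45 ± 0.48 (adjusted p = 1.00). None of 32 listed genes was called in that test, nor any other gene (0%), with 1 unadjusted p under 0.05 and none called by DESeq2. In simulated counts that test recovered 3% of genes changed 2-fold and 60% of those changed 4-fold, so it could miss most 2-fold differences.

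Among the stress response genes, Gadd45g, which encodes a partner of the stress kinase Map3k4, stood at 32.7 and 86.5 CPM in green CD8-like cells of RT day 1, against 20.3 and 22.4 CPM in those of NT day 1 (1.60 ± 0.41, adjusted p = 0.60). Gadd45b stood at 166 and 104 CPM in the same RT day 1 cells and at 55.7 and 86.0 CPM in the NT day 1 cells (0.88 ± 0.65, adjusted p = 1.00). Aen, a nuclease of the p53 response, stood at 60.8 and 77.2 CPM in the RT day 1 cells, against 44.7 and 44.5 CPM in the NT day 1 cells (0.68 ± 0.26, adjusted p = 1.00). In all 3 genes both irradiated samples were above both unirradiated ones, and none passed the test. Gadd45a was too low for a test in these cells. In green T cells as a whole, the largest positive fold change among the listed genes was that of Sesn2, a stress-induced sestrin, which stood at 7.52 and 24.0 CPM in RT day 1 pools, against 3.75 and 6.65 CPM in NT day 1 pools (1.72 ± 0.69, adjusted p = 0.80). It was named after its value was seen.

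The sensors and end-joining genes showed no call either at day 1. Trp53 in green CD8-like cells had a log2 fold change of -0.53 ± 0.19 (adjusted p = 1.00), Atm -0.35 ± 0.31, Atr -0.07 ± 0.22, Prkdc -0.08 ± 0.21, Xrcc5 -0.55 ± 0.43 and Xrcc6 -0.94 ± 0.50. Xrcc5 and Xrcc6 encode the Ku pair that holds broken ends. Of the 9 sensing genes tested there, 8 had a negative and 1 a positive fold change.

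Over green T cells as a whole at day 1, the median log2 fold change was -0.14 for the 34 listed genes tested, 0.01 for all 9136 genes, -0.21 for 71 other repair genes, 0.99 for 25 p53 target genes and -1.46 for 26 cell cycle genes. Of the p53 targets, 7 rose and no listed repair gene did. The 7 were Phlda3 (4.94), Psrc1 (3.21), Cdkn1a (2.83), Dcxr (2.26), Bbc3 (2.10), Ccng1 (2.03) and Bax (1.57), which were named after their values were seen. In red T cells the medians were -0.03 for 41 listed genes, 0.00 for all genes and 0.21 for 29 p53 targets.

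**Figure D1:**
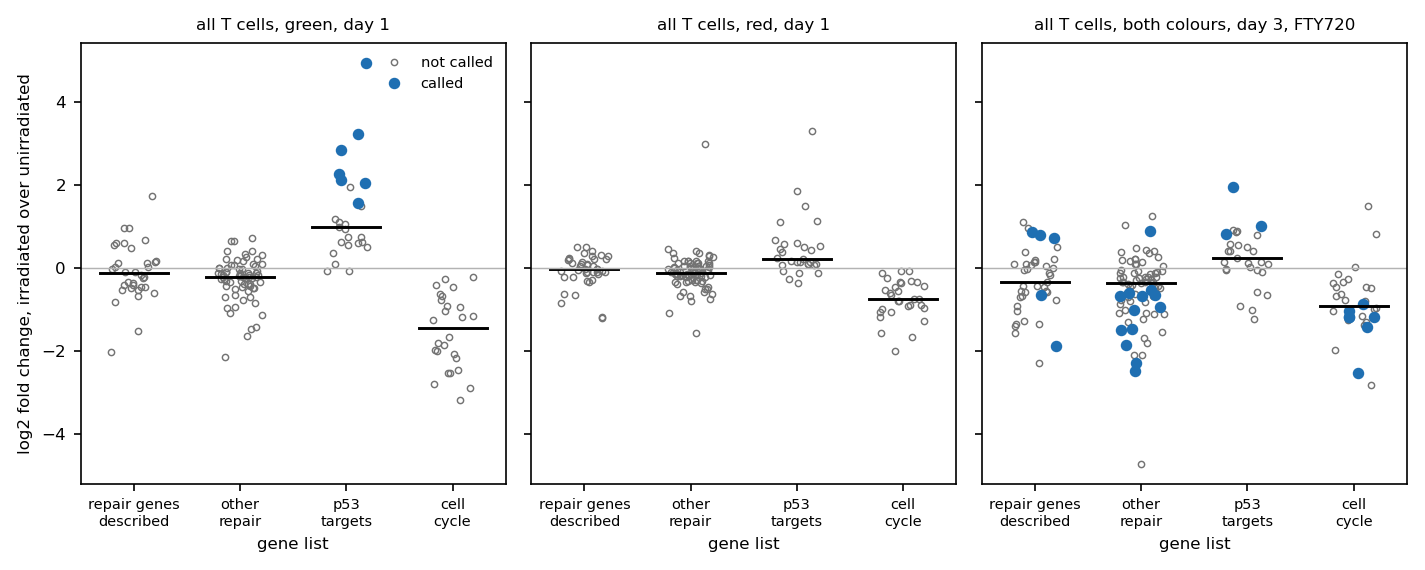
Log2 fold change (irradiated over unirradiated, y axis) of each tested gene of 4 lists in all T cells, for RT day 1 over NT day 1 in green and red cells and for RT+FTY720 over FTY720 in both colours; filled points passed the test and bars are medians. In green cells at day 1 the p53 targets sit above 0 (median 0.99) and the repair genes near it (median -0.14).

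At day 3, 1 of 34 listed genes was called in green T cells, where 8.75% of all genes were (5% higher and 3.74% lower). That gene was Polk, at 63.3 and 47.8 CPM in RT day 3 pools, against 28.6 and 28.8 CPM in NT day 3 pools (1.00 ± 0.21, adjusted p = 0.014). Both irradiated pools lay above both others, and the call was lost with the labels' colours, without the 4 mixed clusters and in 3 fits that each left out a pool, namely the first RT day 3 pool or either NT day 3 pool. In red T cells Polk stood at 17.8 and 43.9 CPM in RT day 3 pools, against 30.3 and 30.4 CPM in NT day 3 pools, 1 below and 1 above both NT pools (0.14 ± 0.34, adjusted p = 0.93).
No listed gene was called in red T cells at day 3 (0 of 41, with 1.19% of all genes called, 4 unadjusted p-values under 0.05 and none by DESeq2). The same held for Treg-like cells of both colours (0 of 31, 0.775%, 3 unadjusted, none by DESeq2) and for CD4 conventional-like cells (0 of 34, 3.54%, 4 unadjusted, none by DESeq2).

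In CD8-like cells of both colours at day 3, 2 of 39 listed genes rose and none fell. Of all genes, 5.62% were called (3.8% higher and 1.83% lower), so the listed genes were near the background. Dclre1c stood at 75.0 and 91.1 CPM in RT day 3 pools, against 52.2 and 43.8 CPM in NT day 3 pools (0.84 ± 0.22, adjusted p = 0.042). Chek2, the checkpoint kinase below Atm, stood at 20.3 and 12.0 CPM in RT day 3 pools, against 3.53 and 5.29 CPM in NT day 3 pools (1.84 ± 0.46, adjusted p = 0.036), from 13 and 10 UMIs against 11 and 29 UMIs. In both genes the irradiated pools were above the unirradiated ones. Neither call was kept when any 1 of the 4 pools was left out, and Chek2 did not pass with the replicate number as a block either (adjusted p = 0.051). Split by colour, Chek2 was at 0 and 18.3 CPM in green and at 31.5 and 7.92 CPM in red CD8-like cells of RT day 3 with the matrices' colours. With the labels' colours the green values were 0 and 7.92 CPM and the red ones 31.5 and 18.3 CPM. All 13 UMIs of RT day 3 replicate 1 came from its red sample, which held 24 cells. Over all T cells of that sample, 30 cell cycle genes summed to 1950 CPM, against 653 to 1374 CPM in NT day 3 samples. In a cluster led by cell cycle genes lay 8.33% of its cells. The replicate 2 sample with Chek2 at 18.3 CPM had a cell cycle sum of 644 CPM. The part of the cell cycle in the Chek2 call was not tested. In the 2 RT+FTY720 pools, Chek2 in CD8-like cells was at 1.67 and 1.077 CPM, against 4.88 and 2.67 CPM in FTY720 pools from 1 to 3 UMIs in each pool (-1.26 ± 1.00, adjusted p = 0.62).

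The change of the radiation effect between the days was tested in CD8-like cells of both colours. RT day 3 and NT day 3 were in different wells, so well and a change between the days cannot be told apart. None of 39 listed genes was called (0.605% of all genes; 6 unadjusted p-values under 0.05; none by DESeq2), and the day 3 minus day 1 difference was 0.70 ± 0.29 for Dclre1c (adjusted p = 0.34), 0.28 ± 0.26 for Polk (adjusted p = 0.75) and 1.74 ± 0.62 for Chek2 (adjusted p = 0.24).

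Under FTY720, 5 of 41 listed genes were called in T cells of both colours at day 3. Of all genes, 9.2% were called (5% higher and 4.21% lower), so the listed genes were near the background. Polk, Dclre1c and Gadd45b rose, and Nbn and Prkdc fell. Nbn encodes the Mre11-Rad50 partner that brings Atm to breaks. It stood at 8.71 and 8.36 CPM in RT+FTY720 pools, against 33.2 and 30.9 CPM in FTY720 pools (-1.88 ± 0.31, adjusted p = 0.0035), from 8 and 11 UMIs against 32 and 74 UMIs. Gadd45b stood at 301.6 and 311.7 CPM in RT+FTY720 pools, against 155 and 200 CPM in FTY720 pools (0.79 ± 0.17, adjusted p = 0.014). Prkdc, the kinase of end joining, stood at 39.2 and 43.3 CPM in RT+FTY720 pools, against 68.5 and 64.7 CPM in FTY720 pools (-0.65 ± 0.14, adjusted p = 0.015). In the sums of both colours, these 3 genes showed no overlap between the conditions. By the matrices' colours, Gadd45b made up 152 of 454689 and 28 of 548443 UMIs in green cells with RT+FTY720. In green cells with FTY720 it made up 42 of 337319 and 166 of 1036034, so the conditions overlapped. In red cells it made up 125 of 463893 and 382 of 767079 with RT+FTY720, against 107 of 626889 and 312 of 1357863, without overlap. Polk stood at 35.9 and 54.7 CPM in RT+FTY720 pools, against 24.9 and 26.3 CPM in FTY720 pools (0.87 ± 0.22, adjusted p = 0.027). Dclre1c stood at 80.6 and 71.5 CPM in RT+FTY720 pools, against 48.7 and 46.0 CPM in FTY720 pools (0.71 ± 0.19, adjusted p = 0.042). For these 2 as well, both irradiated pools were above both unirradiated ones.

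These pools held 51 and 71 cells with RT+FTY720 and 39 and 103 with FTY720. Nbn was called whichever pool was left out, with fold changes between -1.96 and -1.84. Gadd45b and Prkdc were called only without FTY720 replicate 2, Polk only without RT+FTY720 replicate 1, and Dclre1c in none of these 4 fits. The count of listed genes called was 2 without RT+FTY720 replicate 1, 1 without RT+FTY720 replicate 2, 1 without FTY720 replicate 1 and 5 without FTY720 replicate 2. Naive CD8-like cells made up 1.96% and 4.23% of cells in RT+FTY720 pools, against 23.1% and 15.5% in FTY720 pools, and the summed level of 30 cell cycle genes was 844 and 749 CPM in RT+FTY720 pools, against 1312 and 1626 CPM in FTY720 pools. The part of either in these results was not tested. Of the Nbn UMIs in RT+FTY720 pools, CD8-like, Treg-like and CD4 conventional-like cells held 5, 2 and 1 of 8, and 7, 0 and 1 of 11. In FTY720 pools these lineages held 5, 2 and 2 of 32, and 31, 4 and 7 of 74. The remainder lay in naive-like cells. Within CD8-like cells alone, 0 of 39 listed genes were called by edgeR (3.16% of all genes; 10 unadjusted p-values under 0.05) and 2 by DESeq2, with fold changes of 1.04 ± 0.27 for Polk (adjusted p = 0.058), 1.01 ± 0.25 for Dclre1c (0.053), 0.93 ± 0.26 for Gadd45b (0.078), -0.71 ± 0.21 for Prkdc (0.094) and -1.46 ± 0.50 for Nbn (0.14).

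By role, under FTY720 the 7 recombination genes had a median log2 fold change of -1.06, with 6 of 7 negative and none called. The 7 end-joining genes had a median of -0.65, the 5 base excision genes one of -0.58, the 10 sensing genes one of -0.24 and the 5 nucleotide excision genes one of -0.03, against -0.01 for all genes. The 5 stress response genes had a median of 0.09 and the 2 translesion polymerases one of 0.47, both of them positive. Of 79 other repair genes tested, 12 fell and 1 rose. Among those that fell was Ung, the uracil glycosylase (-2.49 ± 0.33, adjusted p = 0.0014), and the one that rose was Parp9 (0.89 ± 0.12, adjusted p = 0.0014), both named after their values were seen.

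**Figure D2:**
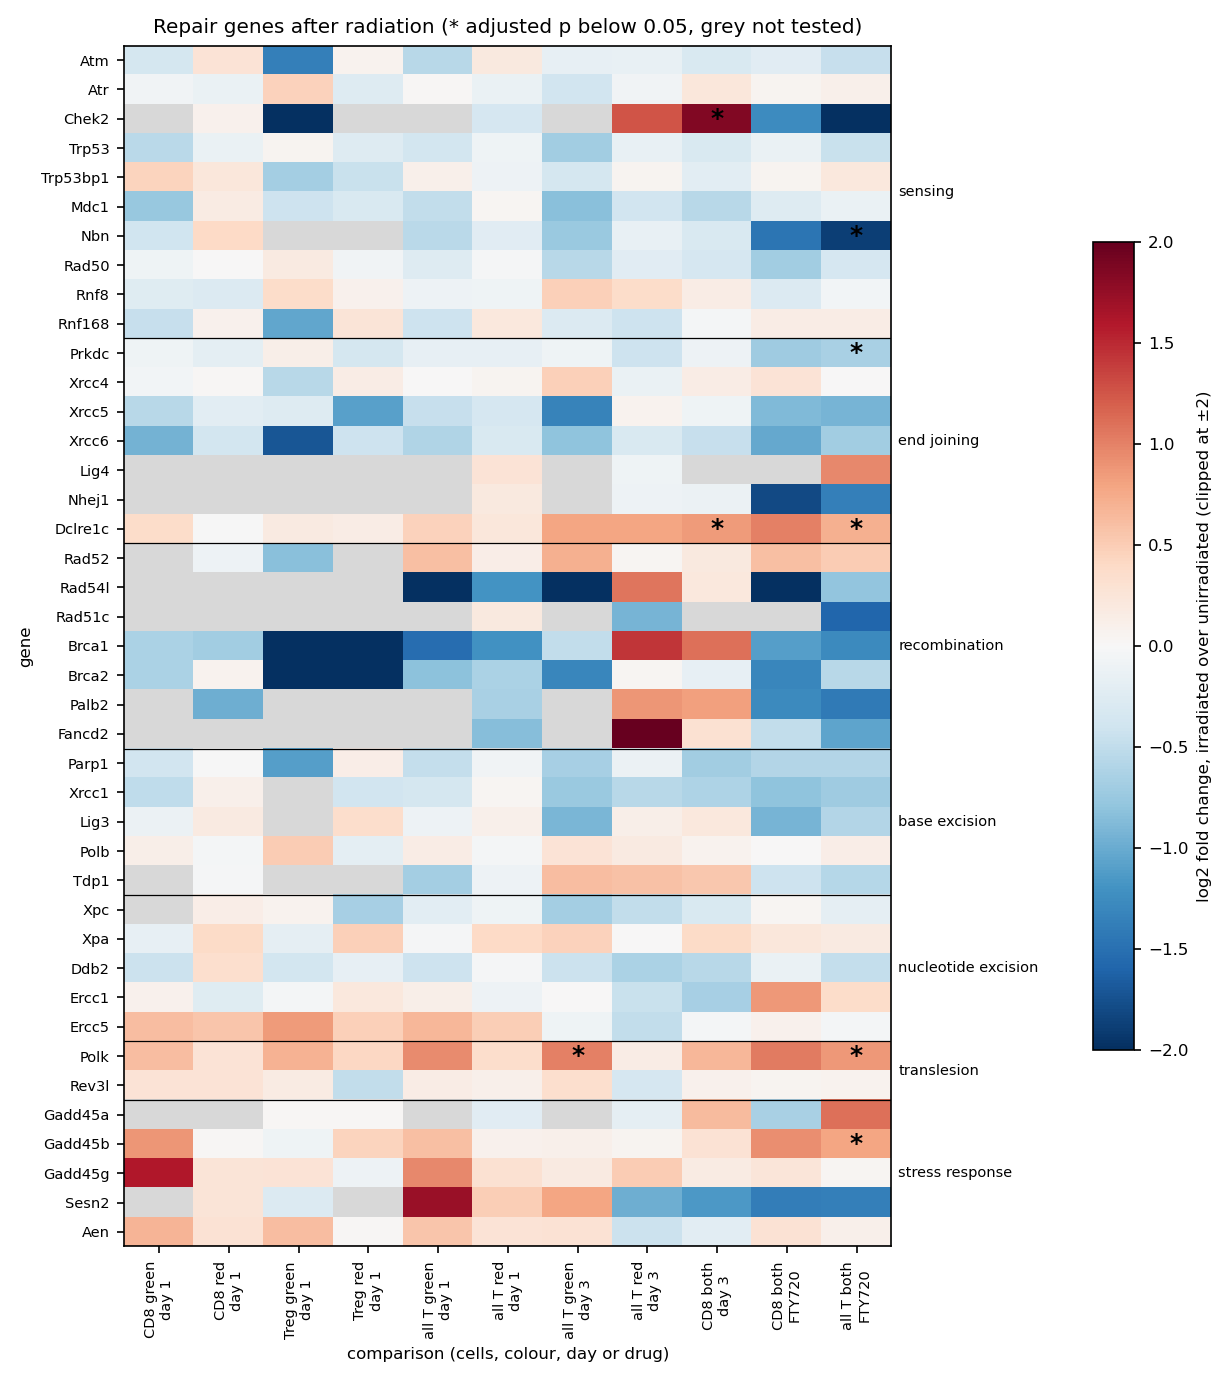
Log2 fold change (irradiated over unirradiated, colour scale clipped at ±2) of the 41 genes, in rows by role, in 11 comparisons, in columns (FTY720 columns are RT+FTY720 over FTY720 at day 3); a star marks an adjusted p under 0.05 and grey a gene not tested. The Polk and Dclre1c rows are above 0 or near it in every column shown, and all stars lie in day 3 columns.

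The 3 pairs of conditions (day 1, day 3 and day 3 with FTY720) were then fitted together, with the pair as a covariate, so that 6 irradiated pools were set against 6 unirradiated ones. RT day 3 and NT day 3 were in different wells, so in the part of that pair well and radiation cannot be told apart. In green CD8-like cells 1 of 29 listed genes was called, with 2.59% of all genes called (1.77% higher and 0.824% lower), again near the background. Polk stood at 63.1 and 72.4 CPM in RT day 1, 101 and 54.8 CPM in RT day 3 and 57.4 and 64.4 CPM in RT+FTY720 samples, against 54.0 and 37.7 CPM in NT day 1, 34.1 and 32.9 CPM in NT day 3 and 25.7 and 21.7 CPM in FTY720 samples. All 6 irradiated samples were above all 6 unirradiated ones (1.01 ± 0.19, adjusted p = 0.022). That call was lost with the labels' colours, without the mixed clusters, and when either NT day 3 pool, the first RT day 3 pool or the second FTY720 pool was left out. In red CD8-like cells none of 33 was called (0.641% of all genes; 1 unadjusted p under 0.05; none by DESeq2), and Polk had a log2 fold change of 0.28 ± 0.22 (adjusted p = 0.85).

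The same fit was made on T cells of both colours, a choice made after the data were seen. It did not depend on which cells of replicate 2 were red. The mix of red and green cells still differed between pools and was not a term of the fit, and its part was not tested. The fit called 7 of 41 listed genes, with 6.76% of all genes called (4.49% higher and 2.28% lower). Polk, Dclre1c and Gadd45b rose, and Prkdc, Trp53, Xrcc6 and Brca2 fell. The pools of the first 2 did not overlap between irradiated and unirradiated samples in any of the 3 pairs, nor did those of Nbn, Parp1, Prkdc, Rad50, Trp53 and Xrcc1, all 6 lower. Over all genes, 8.99% did not overlap in each pair, 4.01% higher and 4.98% lower.

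Polk stood at 48.5 and 46.2 CPM in RT day 1 pools against 33.6 and 31.2 CPM in NT day 1 pools, and at 34.9 and 45.2 CPM in RT day 3 pools against 29.4 and 29.6 CPM in NT day 3 pools, which with the FTY720 pools above gave 0.62 ± 0.10 (adjusted p = 0.0051). Dclre1c stood at 49.2 and 37.7 CPM in RT day 1 pools against 34.3 and 35.3 CPM in NT day 1 pools, and at 62.4 and 71.5 CPM in RT day 3 pools against 44.5 and 35.5 CPM in NT day 3 pools (0.60 ± 0.11, adjusted p = 0.0087). Fitted pair by pair in these cells, edgeR called 0 of 41 listed genes at day 1 (0.0978% of all genes; 8 unadjusted p-values under 0.05), and at day 3 only Dclre1c (0.83 ± 0.17, adjusted p = 0.011), with 7.73% of all genes called. Over the 3 pairs, Polk and Dclre1c both passed in 12 of 12 fits that each left out 1 pool, and without the mixed clusters (adjusted p = 0.046 for Polk and 0.044 for Dclre1c).

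Prkdc stood at 48.2 and 47.2 CPM in RT day 1 pools against 58.6 and 53.4 CPM in NT day 1 pools, and at 46.0 and 49.6 CPM in RT day 3 pools against 61.9 and 63.2 CPM in NT day 3 pools (-0.36 ± 0.08, adjusted p = 0.023). Trp53, which encodes p53, stood at 121 and 126 CPM in RT day 1 pools against 139 and 148 CPM in NT day 1 pools, and at 95.8 and 120 CPM in RT day 3 pools against 137 and 151 CPM in NT day 3 pools (-0.32 ± 0.08, adjusted p = 0.025). All 6 irradiated pools of each gene lay below all 6 unirradiated ones. Xrcc6 ranged over 13.7 to 24.0 CPM with a median of 20.3 in irradiated pools, against 23.9 to 33.4 CPM with a median of 27.4 in unirradiated pools (-0.49 ± 0.13, adjusted p = 0.037). Brca2, a gene of homologous recombination, ranged over 8.44 to 21.3 CPM with a median of 14.4 in irradiated pools, against 14.9 to 28.4 CPM with a median of 22.7 in unirradiated pools (-0.66 ± 0.18, adjusted p = 0.047). Gadd45b ranged over 192 to 335 CPM with a median of 270 in irradiated pools, against 153 to 258 CPM with a median of 187 in unirradiated pools (0.45 ± 0.11, adjusted p = 0.033). The ranges of these last 3 overlapped.

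These 5 calls rested on fewer of the 12 leave-one-out fits: Prkdc passed in 10, Trp53 in 8, Xrcc6 in 5, Gadd45b in 3 and Brca2 in 2. Trp53 did not pass without either NT day 3 or either RT+FTY720 pool. Xrcc6 did not pass without NT day 1 replicate 1, either NT day 3 pool or the second pool of RT day 1, RT day 3, FTY720 or RT+FTY720. Gadd45b passed only when either NT day 1 pool or the first RT day 1 pool was left out, and Brca2 only when the second NT day 1 pool or the first RT day 3 pool was. Prkdc had an adjusted p of 0.060 without NT day 3 replicate 2 and of 0.056 without RT+FTY720 replicate 2. Without the mixed clusters, Xrcc6 (0.11) and Brca2 (0.27) did not pass, nor did they with the replicate number as a block (0.051 for Xrcc6 and 0.056 for Brca2). Without these clusters the adjusted p of Prkdc (0.031), Trp53 (0.036) and Gadd45b (0.036) stayed under the threshold. The summed cell cycle level was 729 to 1331 CPM in irradiated pools and 1065 to 1753 CPM in unirradiated pools, and the median mitochondrial share per cell was 0.912% to 1.59% in irradiated and 1.59% to 1.74% in unirradiated pools. Their part in these results was not tested.

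**Figure D3:**
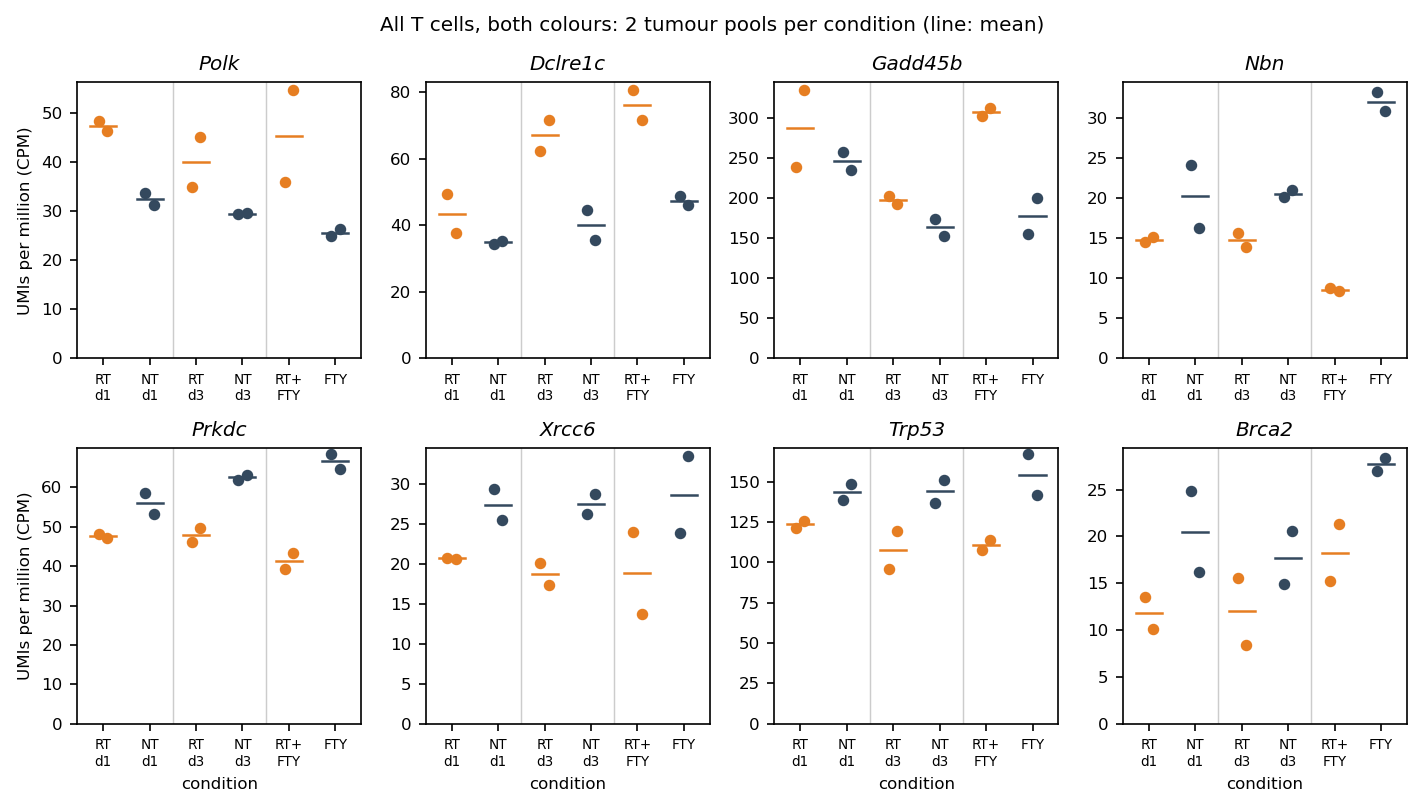
CPM (y axis, from 0) of 8 genes in T cells of both colours, each point 1 pool and each line the mean of 2, orange where irradiated, for RT day 1, NT day 1, RT day 3, NT day 3, RT+FTY720 and FTY720, in that order. Polk and Dclre1c are higher in the irradiated pool of each pair, Prkdc and Trp53 lower, and Nbn is at 8.71 and 8.36 CPM with RT+FTY720, against 33.2 and 30.9 CPM with FTY720.

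Atm, the kinase of double-strand breaks, ranged over 51.2 to 78.2 CPM with a median of 66.2 in irradiated pools, against 72.0 to 91.3 CPM with a median of 76.7 in unirradiated pools. Atr, the kinase of stalled forks, ranged over 40.2 to 56.3 CPM with a median of 46.9 in irradiated pools, against 46.0 to 61.9 CPM with a median of 48.5 in unirradiated pools. Xrcc5, the larger Ku protein, lay between 15.2 and 37.9 CPM with a median of 24.6 in irradiated pools, against 25.9 to 50.8 CPM with a median of 36.9 in unirradiated pools. The 2 kinases and Xrcc5 overlapped between irradiated and unirradiated pools. Gadd45a was low, at 3.27 to 12.0 CPM with a median of 8.06 in irradiated pools, against 1.67 to 11.4 CPM with a median of 7.03 in unirradiated pools. Gadd45g lay between 28.3 and 51.7 CPM with a median of 45.1 in irradiated pools, against 22.6 to 70.5 CPM with a median of 31.4 in unirradiated pools. The Gadd45 pair overlapped too, and 1 FTY720 pool held the highest Gadd45g level.

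Genes named for their place in the pathway and not called in that fit were Atm (-0.20 ± 0.10, adjusted p = 0.28), Atr (-0.06 ± 0.10, 0.79), Chek2 (0.03 ± 0.41, 0.99), Nbn (-0.73 ± 0.21, 0.052), Xrcc5 (-0.49 ± 0.19, 0.14), Gadd45a (0.21 ± 0.31, 0.78) and Gadd45g (0.37 ± 0.23, 0.37). Of all 41, 16 had a positive and 25 a negative fold change, with a median of -0.09 against -0.00 for all genes. Of 78 other repair genes 2 rose and 7 fell, with a median of -0.20, and 9 of 29 p53 targets rose and none fell. The remaining genes of the list lay between -0.98 for Rad54l, a recombination motor protein, and 0.35 for Lig4, the ligase of end joining, and none of them passed.

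Between the colours, 3 of 32 listed genes were called in CD8-like cells with red set against green in the same pool. Of all genes, 8.84% were called (4.75% higher and 4.09% lower), so the listed genes were near the background. Gadd45b rose in red cells, where it ranged over 194 to 526.5 CPM with a median of 303.5, against 16.7 to 242 CPM with a median of 75.5 in green cells (1.92 ± 0.27, adjusted p = 0.00060). It was higher in the red cells of 12 of 12 pools. Prkdc fell in red cells, ranging over 31.5 to 73.6 CPM with a median of 49.6, against 31.9 to 93.3 CPM with a median of 69.1 in green cells (-0.47 ± 0.12, adjusted p = 0.023), and was lower in 11 of 12 pools. Brca2 fell in red cells, ranging over 0 to 18.3 CPM with a median of 13.05, against 3.19 to 51.7 CPM with a median of 20.4 in green cells (-0.89 ± 0.25, adjusted p = 0.032), and was lower in 9 of 12. The Prkdc call was lost when NT day 1 replicate 2, RT day 1 replicate 2 or NT day 3 replicate 1 was left out, and that of Brca2 without any of these 3 or without NT day 1 replicate 1 or the second pool of NT day 3, FTY720 or RT+FTY720. These directions rest on the matrices' colours. With the labels' colours in replicate 2, all 3 turned round and none was called: Gadd45b -0.52, Prkdc 0.14 and Brca2 0.53. In the 6 replicate 1 pools, where both sources give the same colours, red cells were higher in 6 for Gadd45b, lower in 5 for Prkdc and lower in 4 for Brca2. Gadd45g differed by 0.32 ± 0.23 (adjusted p = 0.41) and Dclre1c by 0.38 ± 0.13 (0.080), and Gadd45a was not tested there.

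**Figure D4:**
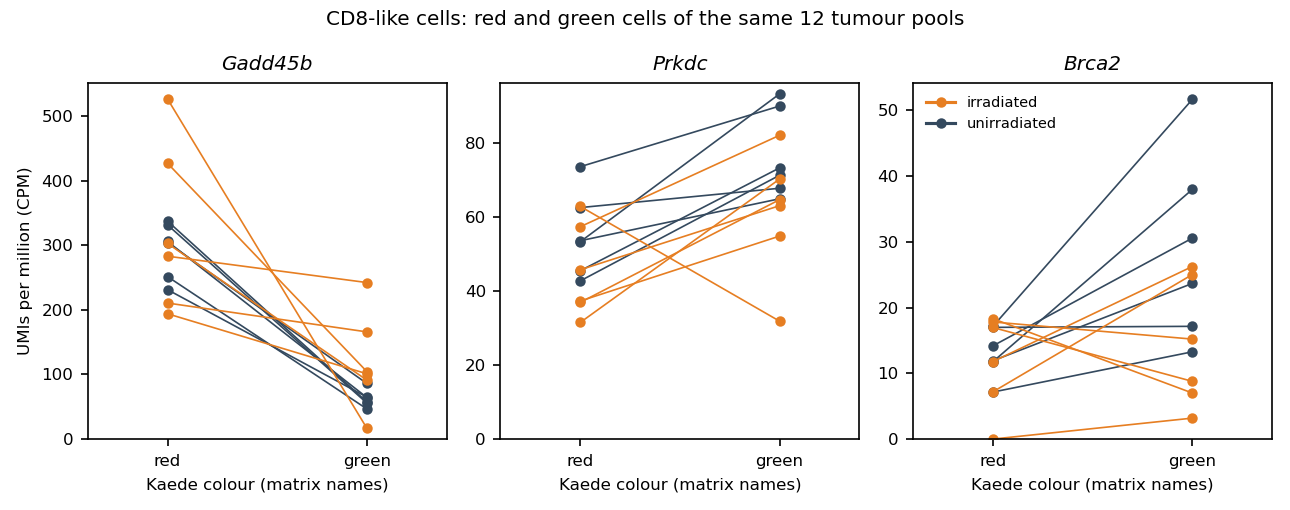
CPM (y axis, from 0) of Gadd45b, Prkdc and Brca2 in red (left) and green (right) CD8-like cells, each line 1 of the 12 tumour pools, coloured by irradiation. Gadd45b is higher in red cells of all 12 pools, Prkdc lower in 11 and Brca2 lower in 9, with the colours named in the matrices.

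Without radiation, 12 of the 41 genes did not overlap between Treg-like and CD8-like pools, 6 higher and 6 lower in Treg-like cells. Of all genes, 29.2% did not overlap (17.5% higher and 11.7% lower in Treg-like cells), so the listed genes were near the background. The levels below are means ± SD over the 4 NT pools of both days and both colours, given as a description. Gadd45b was the highest listed gene in each lineage, at 344 ± 39.8 CPM in Treg-like, 188 ± 41.4 CPM in CD8-like and 241 ± 84.0 CPM in CD4 conventional-like cells. Gadd45a, which binds PCNA and Cdkn1a, stood at 18.1 ± 3.03 CPM in Treg-like and 4.12 ± 2.28 CPM in CD8-like cells, and Ddb2, which recognizes ultraviolet lesions, at 45.4 ± 8.94 and 23.4 ± 1.65 CPM in the same lineages. For these 3 genes, and for Xpc, Xpa and Rnf168, the Treg-like pools all lay above the CD8-like ones. The opposite order, again without overlap, was seen for Tdp1 (5.93 ± 2.14 CPM in Treg-like and 10.3 ± 1.76 CPM in CD8-like cells), Trp53 (106 ± 9.96 CPM in Treg-like and 147 ± 8.63 CPM in CD8-like cells), Atm (43.2 ± 11.9 and 76.9 ± 4.76 CPM), Prkdc (43.4 ± 3.34 and 59.6 ± 4.82 CPM), Dclre1c (29.5 ± 9.51 and 46.5 ± 3.89 CPM) and Aen (27.99 ± 2.05 and 43.7 ± 1.29 CPM). Atr did not separate them, at 50.5 ± 15.8 CPM in Treg-like and 52.5 ± 7.77 CPM in CD8-like cells.

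Cells of 2 small clusters carried some of these genes at other levels than the rest. Only Gadd45b and Gadd45g were among the variable genes that made the clusters, and the intervals cover counting error only and the cells of a cluster share samples, so these are descriptions. In the 80 cells of a cluster led by histone and cell cycle genes, of which 16 came from irradiated and 64 from unirradiated pools, Brca1 stood at 129 CPM (95% Poisson interval 118 to 141), against 6.92 CPM (6.23 to 7.67) in the 2385 cells outside it and outside the p53 target-led and interferon-led clusters. Brca2 (81.9 against 12.7 CPM), Rad54l (56.9 against 2.75 CPM) and Fancd2 (49.6 against 1.43 CPM), the crosslink repair gene, showed the same order, and Polk did not (29.7 against 34.5 CPM). Listed genes of other roles were also higher in that cluster. Among them were Chek2 (15.4 against 4.36 CPM), Nbn (40.4 against 16.5 CPM), Rad50 (112 against 61.4 CPM) and Tdp1 (26.1 against 9.56 CPM). Some were lower in it, such as Gadd45b (80.6 against 255 CPM) and Xpa (27.4 against 41.5 CPM). All 63 cells of a cluster led by the p53 targets Phlda3 and Psrc1 came from irradiated pools, 58 from RT day 1 and 5 from RT+FTY720, whereas the rest held 770 cells from irradiated and 1615 from unirradiated pools, so that cluster and radiation cannot be told apart in these values. There, Polk stood at 145 CPM (122 to 172), against 34.5 CPM in the rest, Aen at 136 CPM (113 to 161), against 38.6 CPM in the rest, and Sesn2 at 45.2 CPM (32.7 to 60.9), against 8.45 CPM. Of the other genes named above as responsive to stress or p53, Ddb2 stood at 42.1 CPM (30.1 to 57.3), against 29.9 CPM. Gadd45a was at 12.6 CPM (6.52 to 22.1), against 8.92 CPM. Gadd45b was lower there, at 70.5 CPM (54.6 to 89.5), against 255 CPM (250 to 259) in the rest. Gadd45g was at 18.9 CPM (11.2 to 29.9), against 36.1 CPM, and Xpc at 15.8 CPM (8.83 to 26.0), against 17.7 CPM. Dclre1c stood at 61.0 CPM (46.3 to 78.9) there and at 40.4 CPM (38.7 to 42.2) in the rest, and Trp53 at 118 CPM (97.0 to 142) there and at 139 CPM (135 to 142) in the rest. Genes not named above as responsive to stress or p53 were also higher there. Among them were Ercc5 at 63.1 CPM (48.2 to 81.2), against 22.8 CPM, and Rev3l at 164 CPM (139 to 192), against 86.9 CPM. Rad52 stood at 17.9 CPM (10.4 to 28.6), against 8.54 CPM. Others were lower, such as Xrcc6 at 11.6 CPM (5.78 to 20.7), against 25.2 CPM.

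**Figure D5:**
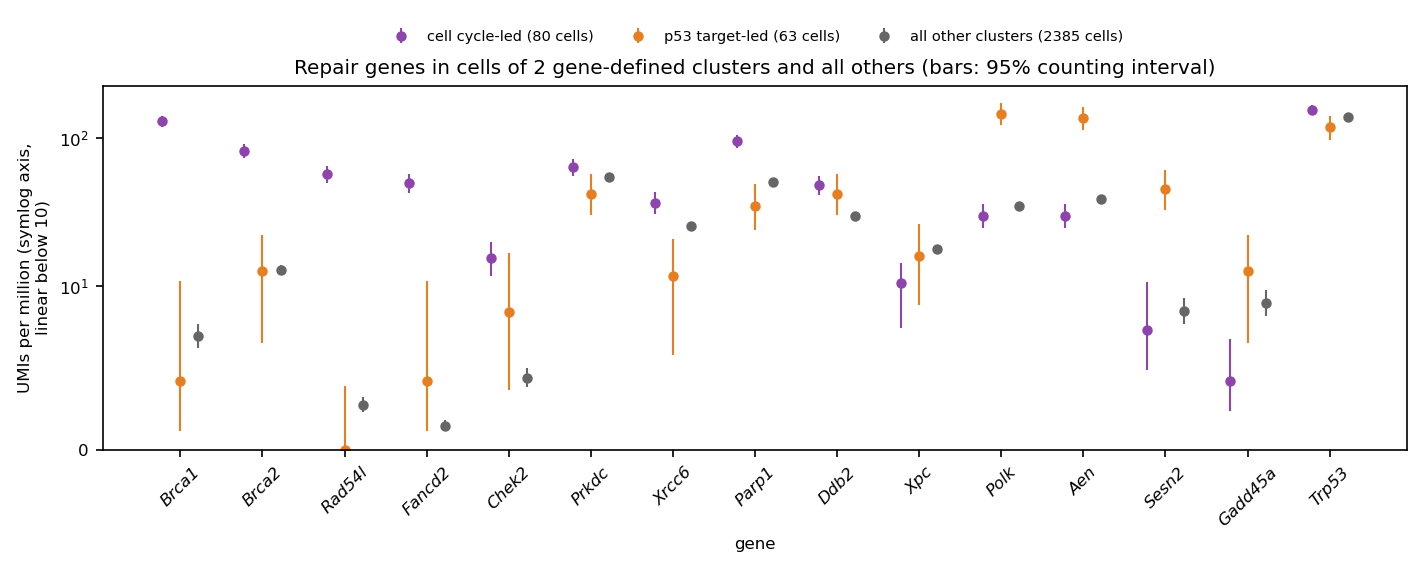
CPM (y axis, symlog and linear below 10) of 15 genes in cells of the cell cycle-led cluster, the p53 target-led cluster and all other clusters but the interferon-led one, with 95% Poisson intervals. Brca1, Brca2, Rad54l and Fancd2 are highest in the first, and Polk, Aen and Sesn2 in the second.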

How the data were processed

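The authors deposited raw UMI counts of genes and hashtags for each barcode. The submitters' processing notes name Cell Ranger 8.0.1 and mm39. Whether cells were filtered further before deposit was not stated. Promoter sequences come from a RefSeq table of GRCm38.p6, from which no other coordinates were taken.

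Of 2816 barcodes, 2740 passed a minimum of 500 genes and a maximum of 10% mitochondrial UMIs. A cell took the sample of its top hashtag, which needed 20 UMIs and 3 times those of the next tag, and 0 cells were lost by this. No doublet caller was run, and no barcode was shared between wells. Kept cells had medians of 17857 to 20915 UMIs per well. Clusters came from 2000 variable genes, 30 principal components, 15 neighbours and Leiden resolution 1 (scanpy 1.11.5, leidenalg 0.10.2). A marker counted for a cluster at a fold of 1.25 over the rest and a UMI in 10% of its cells. The 475 cells of 4 mixed clusters were each given a class by their own markers, which returned the cluster's class for 79.78% of cells in named clusters.

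UMIs were summed per tagged sample and lineage (at least 5 cells) and compared by the quasi-likelihood test of edgeR 4.0.16 (filter filterByExpr, scaling TMM, Benjamini-Hochberg adjustment over all genes tested). SE is the fold change over the square root of F. P-values measure the spread between pools of the same condition. In the fits over 3 pairs that spread also holds differences of the radiation effect between the pairs. For red against green it is the spread of the colour difference over the pools of all conditions. Alternatives were DESeq2 1.42.0, RLE scaling, no filter, only the conditions compared, the replicate number as a block, at least 10 cells, the labels' colours, other lineage rules, all barcodes and leaving out each pool. Fits were tested on simulated counts with 100 genes changed 2-fold and 100 changed 4-fold. For green CD8-like cells at day 1, 30% and 83% of these were recovered. The shares were 44% and 67% for CD8-like cells of both colours at day 3. They were 71% and 95% for green CD8-like cells over 3 pairs, and 3% and 60% for the green minus red difference. Unchanged genes called in these simulations numbered 9, 7, 10 and 11, in the same order.

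The named genes were every listed gene called in at least 1 of the 20 planned comparisons and the fixed names Atm, Atr, Prkdc, Trp53, Chek2, Xrcc5, Xrcc6 and the Gadd45 genes. The same rule would have named other genes from those called at day 1 in green CD8-like cells, of which there were 0. The genes and lists were chosen with earlier results of these data known. Replicate numbers mark shared wells for the comparisons within wells. Deviations of same-numbered pools correlated at 0.0081 to 0.050 in these comparisons. For RT day 3 and NT day 3, in different wells, they correlated at 0.057 in CD8-like cells and 0.065 in all T cells. In the comparisons within wells the block did not move the count of listed genes called by more than 1.5 times.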

Additional observations from a re-analysis of the deposited data

Results flagged for a closer look

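In T cells of both colours, the CPM of the 14 named genes were examined for a single pool standing apart among the 6 irradiated or the 6 unirradiated pools. Among the 28 groups, 2 held such a pool, and chance alone marks about 5% of groups. Atr stood at 61.9 CPM in NT day 3 replicate 1, the next unirradiated pool being at 49.2 CPM. Gadd45g stood at 70.5 CPM in FTY720 replicate 1, a pool of 39 cells, the next unirradiated pool being at 36.5 CPM.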

How the results depend on the processing

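Values here are counts of listed genes called. Without the filter on low counts they were 1 in green CD8-like (Gadd45g) and 1 in green CD4 conventional-like cells (Polk) at day 1, 5 in green T cells at day 1, 4 in green and 2 in red T cells at day 3, 3 in CD8-like cells under FTY720, 4 in green CD8-like cells over 3 pairs, 1 for the day 3 minus day 1 difference and 5 for red against green. With only the conditions compared, they were 3 in green T cells and 1 in CD8-like cells at day 3 and 2 in T cells under FTY720. With the labels' colours they were 0 in green T cells at day 3, 0 in green CD8-like cells over 3 pairs and 0 for red against green. Without the mixed clusters they were 0 in green T cells and 1 in CD8-like cells at day 3, 1 in CD8-like cells under FTY720 and 0 in green CD8-like cells over 3 pairs. With the replicate block the count was 1 in CD8-like cells at day 3, and 5 in place of 7 in the fit added for T cells of both colours over 3 pairs, where it lost Xrcc6 and Brca2. With lineages from a gate on Cd4, Cd8 and Foxp3 genes, counts were 1 in CD8-like cells at day 3, 7 in CD8-like cells under FTY720, 2 in green CD8-like cells over 3 pairs and 1 for red against green. DESeq2 called 2 in CD8-like cells under FTY720, 3 in green CD8-like cells over 3 pairs and 9 in the added fit. Summing both colours, added after seeing the data, gave 1 in red T cells at day 3 and 1 in red CD8-like cells over 3 pairs, and 7 in T cells over 3 pairs in place of green or red CD8-like cells. Leaving out 1 pool at a time gave 0 to 2 in green T cells and 0 to 0 in CD8-like cells at day 3, 1 to 5 in T cells under FTY720, 0 to 2 in green CD8-like cells over 3 pairs, 1 to 4 for red against green and 2 to 9 in the added fit. A lone pool left in a condition was taken to vary like the others. With the labels' colours, red against green turned to 0.14 for Prkdc, 0.53 for Brca2 and -0.52 for Gadd45b. The cause of these shifts was not tested. No value could be had at day 1 in green Treg-like and green CD4 conventional-like cells with at least 10 cells per sum or without the mixed clusters, nor without these clusters in CD4 conventional-like cells at day 3.

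The pools of 39 to 106 cells at day 3 limit the lower genes, such as Rad51c, Lig4 and Chek2, and 12 of the 41 listed genes were too low for a test in green CD8-like cells at day 1.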
